A study of Mus musculus with 6 samples.

Results

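Among the protein-coding genes that mouse hepatocytes expressed, 299 had gene models spanning more than 200 kb from start to end. They were chosen by the deposited coordinates, as protein-coding models with an end minus start over 200000 bases, and by level, as models with at least 1 FPKM (reads scaled by exon model length and library size) in 3 or more of the 6 libraries. They were 299 of the 992 protein-coding models of that span, and 299 of the 9696 protein-coding genes that passed the same level. Every one of the 299 was tested between the groups, since the rule on level is also the filter of the test. The values that chose them were levels, and no difference between the groups was used, although 17 of them reached the level in libraries of 1 group alone (3 in HuR, 14 in beta-Gal). At the limit of span, Umad1, 4930402H24Rik and Bri3 lay just inside with 200182, 200206 and 202320 bases, and Atp9b, Clec16a and Mical3 just outside with 199917, 199539 and 199292 bases. At the limit of level, the third-highest FPKM was 1.01, 1.01 and 1.02 in Specc1, Msi2 and Scfd2, which were included, and 0.967, 0.909 and 0.904 in Cdkal1, Ldlrad3 and Gria3, which were not.

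The cells were primary hepatocytes, the parenchymal cells of the liver, freshly isolated from C57BL/6 mice by collagenase perfusion and kept in RPMI 1640 medium with serum. One group received an adenovirus for HuR overnight and the other an adenovirus for beta-Gal (beta-galactosidase, an enzyme of bacteria that serves as a control protein), so both groups carried virus and no uninfected cells were part of the comparison. Each group had 3 RNA-seq libraries, with 15413306 to 17108184 assigned reads each, as recovered from the FPKM. The labels do not state whether replicates were separate cultures or separate animals, and the p-values therefore speak only of the spread among these libraries, which could be technical. Elavl1, the gene of HuR, had 2434, 1662 and 1709 FPKM in HuR libraries, against 5.45, 5.91 and 5.62 FPKM in beta-Gal libraries (log2 difference 8.16, SE 0.14, limma adjusted p = 1.16e-06). All 6 hepatocyte markers were at 17.1 FPKM or more in every library, and no marker of stellate cells or lymphocytes reached 1 FPKM in any library. The 6 macrophage markers summed to 31.1 to 40.0 FPKM in HuR and 17.6 to 21.01 FPKM in beta-Gal libraries, almost all of it Cd68, while Clec4f, Adgre1 and Csf1r stayed under 0.5 FPKM. The 6 cholangiocyte markers summed to 180 to 198 FPKM in HuR and 138 to 151 FPKM in beta-Gal libraries, almost all of it Spp1, with Cftr at 0 in all, and the 6 endothelial markers to 5.35 to 6.33 FPKM and 4.03 to 4.54 FPKM. The part of these cells in the results below was not tested. In bulk RNA, fewer cells of a type and less RNA per cell cannot be told apart.

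Long genes owe their span to introns. RNA polymerase needs far longer to reach their ends than those of short genes, and topoisomerases, elongation factors and the U1 snRNP, which keeps polymerase from ending early at polyadenylation signals inside introns, are known to matter more for them. HuR binds U-rich and AU-rich stretches, in introns of precursor RNA and in the 3' UTRs of finished messages, and is best known for raising the stability of messages it binds. The liver expresses many long genes for receptors, scaffolds and metabolic enzymes, although the longest genes of the genome are mostly known from neurons and muscle.

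The sequences that HuR could meet in the finished messages are shown for the 5 largest falls and the 5 largest rises described below. Each is the 30-base window of the annotated 3' UTR with the most T, read on the transcript strand, with DNA letters, from the GENCODE M21 annotation of GRCm38. Capitals mark matches to TTTNTTT, a U-rich word used here as a plain search string, where N is any base and overlapping matches join. The first 5 genes were lower and the other 5 higher in HuR libraries.
Faf1: TTTGTTTGTTTGTTTGTTTGTTTGTTTgtt
Sorbs2: tatgtttgttcTTTTTTTTTTTTTTTTTgt
Psd3: aatagggtttttcaagatctttctggtaat
Gphn: ttttcctttcttgcaaattgctttgtgtgt
Slc7a11: tttgtagTTTTTTTTTCTTTccttattttt
Megf11: tgtgtatgtgctgttgattgttgttatcct
Pde4b: cttttcttgtaatgttttgtattgtgtatt
Gse1: gtTTTCTTTggTTTTTTTGTTTGTTTGTTT
Arhgef3: aaagttttttgttgttgttaatttctgcat
Spon1: actagtTTTCTTTCTTTTTTTTTTTTTatt

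The windows of the lower genes lay at chr4:109962518-109962547 (plus strand, Faf1), chr8:45827316-45827345 (plus strand, Sorbs2), chr8:67696904-67696933 (minus strand, Psd3), chr12:78684137-78684166 (plus strand, Gphn) and chr3:50368218-50368247 (minus strand, Slc7a11). Those of the higher genes lay at chr9:64707076-64707105 (plus strand, Megf11), chr4:102606440-102606469 (plus strand, Pde4b), chr8:120579411-120579440 (plus strand, Gse1), chr14:27403402-27403431 (plus strand, Arhgef3) and chr7:114040058-114040087 (plus strand, Spon1). The word was in 3 of the 5 windows of lower genes and 2 of the 5 windows of higher genes. Faf1, which fell most, had 23 T in its window and 13 matches in its 3' UTR. Megf11, which rose most, had 16 T and no match, and Psd3, which fell, had no match either. The annotated 3' UTR of Psd3 was only 91 bases long, against 2078 bases in Faf1 and 3255 bases in Megf11, so little sequence was searched. Windows with and without the word thus stood on both sides of the comparison, and these 10 genes were picked by the size of their difference and are no sample of the rest. A match is a string of letters and not a measured binding site.

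The long genes were mostly lower in HuR libraries. Of the 299, 134 were lower (44.8%) and 20 higher (6.69%) at a limma adjusted p under 0.05, and 145 did not pass. Among all 11281 genes tested, 45.5% passed in either direction, 24.8% lower and 20.7% higher. Of the calls, 13.0% were rises among the long genes and 45.4% among all tested genes, or 5.65 and 29.3% under TPM scaling, which moved the median of all tested genes to -0.11 and that of the long genes to -0.32. The median log2 difference was -0.18 over the long genes (quartiles -0.38 and 0.0015) and -0.01 over all tested genes, and 224 of the 299 differences were negative. The groups did not overlap for 198 long genes (66.2%), 165 of them lower and 33 higher in HuR, beside 58.1% of all tested genes (30.7% lower and 27.4% higher). The changes were small: among the calls the median size was 0.39 on the log2 scale, against 0.40 among the calls of all tested genes. By 2-fold or more in mean FPKM, 11 of the 299 were lower and 4 higher, beside 313 lower and 476 higher of all 11281 tested genes. The count of rises was 12, 11 and 11 without beta-Gal replicates 1, 2 and 3. Of the 266 long genes with at least 1 FPKM in all 6 libraries, which leaves out those that a single group brought in, 115 were lower and 17 higher, with a median of -0.16. Among the calls of these 266, 8 genes were lower and 2 higher by 2-fold or more in mean FPKM.

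Each HuR library showed the shift on its own. Taken from the beta-Gal mean of each gene, the median over the long genes was -0.19, -0.21 and -0.20 in HuR replicates 1, 2 and 3, and 216, 224 and 230 of the 299 genes lay below that mean. The long genes together took 1.39, 1.40 and 1.37% of the reads in HuR libraries, against 1.74, 1.73 and 1.73% in beta-Gal libraries. With the reads of Elavl1 itself left out of the totals, the shares were 1.42, 1.42 and 1.40% in HuR libraries. The 3 HuR libraries lay close together and apart from the beta-Gal libraries in each of these measures.

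**Figure D1:**
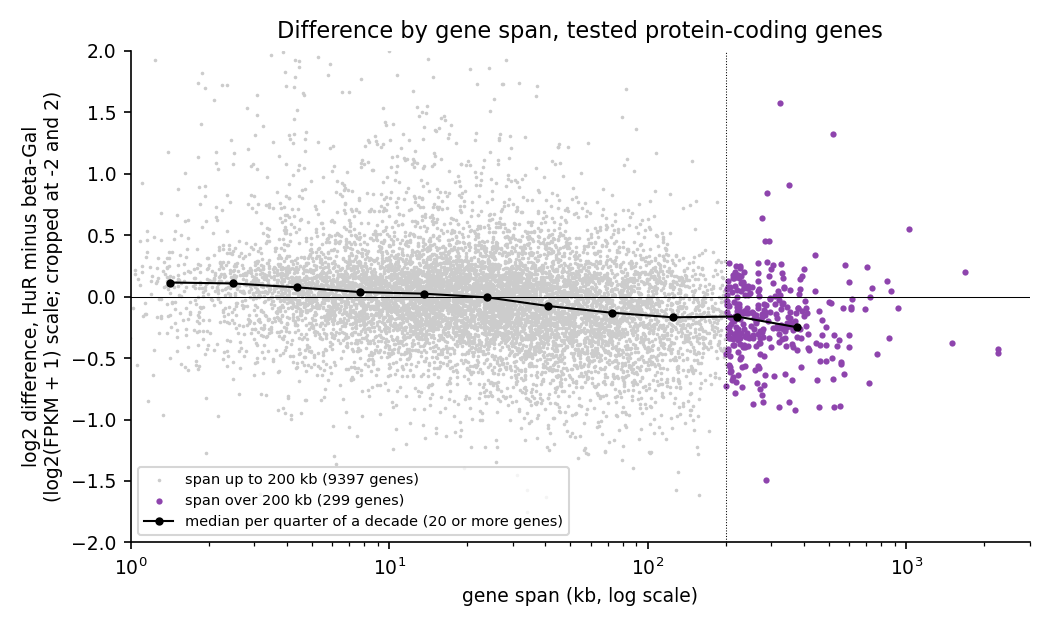
Log2 difference of HuR minus beta-Gal (log2(FPKM + 1) scale) by gene span in kb on a log axis, for tested protein-coding genes; grey points span up to 200 kb, purple points over 200 kb, and the black line joins medians of genes grouped by span. The median line stands at 0.11 for the shortest genes, -0.17 at 125 kb, -0.16 at 221 kb and -0.25 at 377 kb; 29 genes outside the vertical range and 64 shorter than 1 kb are not drawn, none of them over 200 kb.

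Genes spanning over 200 kb were the end of a gradient rather than a class with a sharp edge. Of protein-coding genes spanning up to 10 kb, 15.9% were lower and 27.6% higher in HuR libraries, with a median log2 difference of 0.07. The share that was lower was 19.9% at 10 to 20 kb, 29.8% at 20 to 50 kb and 40.5% at 50 to 100 kb, while the share that was higher was 24.9, 19.2 and 14.6%. At 100 to 200 kb 45.5% were lower and 11.3% higher (median -0.16). The gradient levelled off there. At 200 to 500 kb 44.1% of 263 genes were lower and 6.08% higher (median -0.18), and over 500 kb 18 of 36 genes were lower and 4 higher (median -0.21). Within the long genes, the difference had almost no rank relation to span (Spearman rho -0.02 across 299 genes) or to the largest intron (0.02), whereas across the 9397 shorter genes rho with span was -0.24. These are descriptions across genes of the same 6 libraries, which share library and depth.

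**Figure D2:**
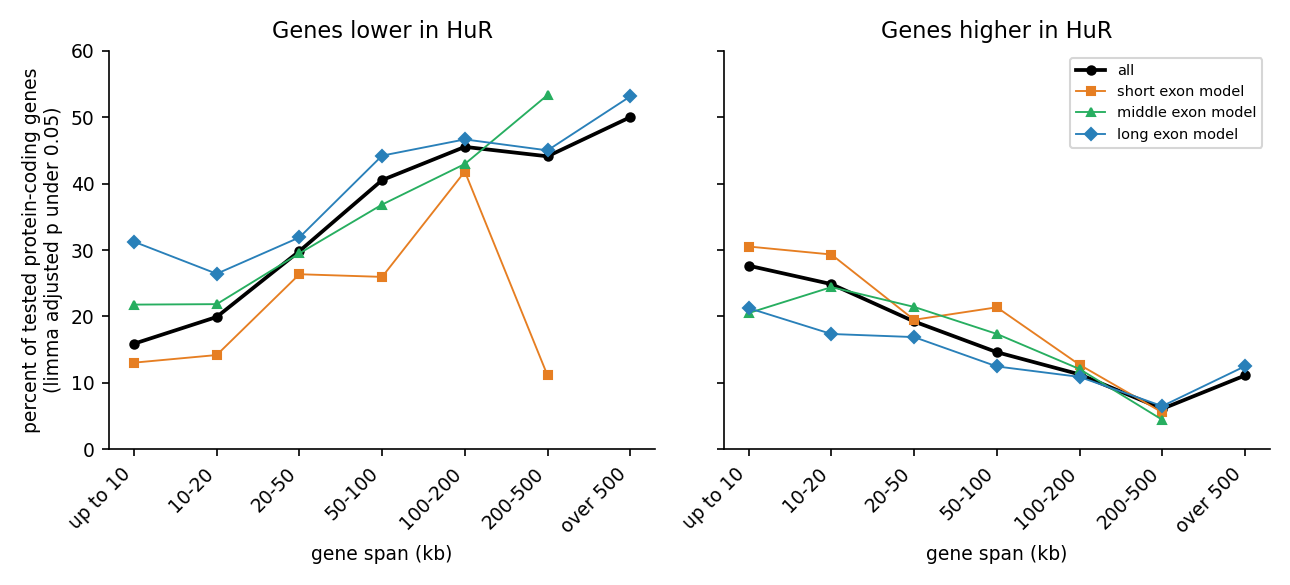
Percent of tested protein-coding genes lower (left) and higher (right) in HuR libraries at a limma adjusted p under 0.05, by class of gene span in kb, for all genes (black) and for 3 classes of exon model length (short up to 3089 bases, middle up to 5572 bases, long above). In each class of exon length, lower genes were more frequent and higher genes less frequent at 100 to 200 kb than at up to 10 kb; the classes over 500 kb with short (1 gene) and middle (3 genes) exon models are not drawn, and the last short point, with 11.1% lower, rests on 18 genes.

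Long genes also have long messages, and the shift followed exon length as well. Their median exon model was 8.88 kb, against 4.12 kb in shorter genes, with 18 exons against 9 in the principal transcript. Introns made up 97.1% of their span at the median, against 80.3%, and the largest intron was 86.6 kb, against 6.06 kb. With exon model length held, by putting all tested protein-coding genes in 10 bins of equal size and weighting the shorter genes by the long genes' share of each bin, 44.8% of long genes and 36.5% of shorter genes were lower, and 6.69 and 16.2% were higher. The median log2 difference was -0.18 in long genes and -0.09 in shorter genes of the same exon length, and the difference between them, taken within bins, was -0.10. In single HuR libraries this difference was -0.09, -0.12 and -0.10. Shorter genes of the same exon length thus lay between the long genes and all shorter genes, whose median was -0.02. With the trend of the difference on exon length removed from all genes, 88 long genes were lower and 40 higher (29.4 and 13.4%, beside 21.7 and 22.95% of all tested genes).

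**Figure D3:**
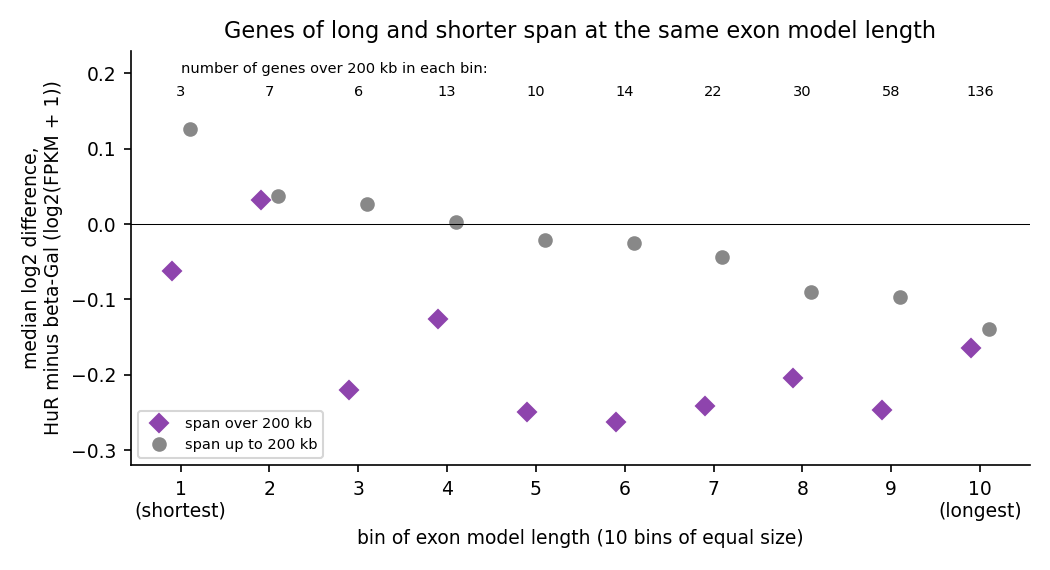
Median log2 difference of HuR minus beta-Gal (log2(FPKM + 1) scale) in 10 bins of exon model length of equal size, for genes spanning over 200 kb (purple diamonds) and up to 200 kb (grey circles), with the number of long genes in each bin at the top. The median of the long genes lay below that of the shorter ones in each of the 10 bins, and in the longest bin, which held 136 of the long genes, the medians were -0.16 and -0.14.

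The separation at equal exon length was not even over the bins. In the longest bin, with exon models from 9515 bases upward, 44.1% of 136 long genes and 42.7% of 834 shorter genes were lower, and 10.3 and 14.0% were higher, so long and shorter genes there differed little. In bins 5 to 9, with exon models from 3498 to 9504 bases, the medians of the long genes ran from -0.20 to -0.26 and those of the shorter genes from -0.02 to -0.10. In the third of genes with the shortest exon models, up to 3089 bases, 2 of 19 long genes were lower (10.5%), against 16.6% of shorter genes and 41.8% of the 55 genes spanning 100 to 200 kb, and 1 was higher (5.26%), against 27.7% of shorter genes. The excess of falls at equal exon length was thus not seen in these 19 genes. Bri3 and Atp5o are 2 of the 29 long genes in the first 4 bins, and in both the principal transcript covered under 10 kb of the model.

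A gene model can be long because of 1 far-off alternative exon, and the span of a model is then not the distance that most of its transcripts cover. The principal transcript of GENCODE M21 spanned more than 200 kb in 260 of the 299 genes, of which 115 were lower and 17 higher (median -0.18). It was shorter in the other 39, of which 19 were lower and 3 higher (median -0.24). Examples of the 39 are Chd1, with a model of 1690 kb and a principal transcript of 67.6 kb, Slc7a11 with 551 and 78.7 kb, and Atp5o with 247 and 6.47 kb. The share that was lower was 48.7% among models with a shorter principal transcript and 44.2% among the other models.

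The 3' UTRs of long genes were longer and held U-rich words more often. Their median length was 1565 bases in long genes and 936 bases in shorter genes. At least 1 TTTNTTT was found in 80.3% of 295 long genes with an annotated 3' UTR, against 65.7% of shorter genes and 66.1% of all tested protein-coding genes, searched on the transcript strand with overlapping matches counted. Per kb of 3' UTR there were 4.56 matches in long genes and 3.70 in shorter genes, and within the long genes 4.50 in those that rose, 4.63 in those that fell and 4.49 in those not called. By presence, the word was in 86.3% of long genes that fell, 15 of the 20 that rose and 75.7% of those not called. Of the most T-rich 30-base windows, 60.8% held the word in long genes, against 50.1% in all tested protein-coding genes. Within the long genes it was 63.1% of those that fell, 10 of the 20 that rose and 60.1% of those not called. In shorter genes it was 59.2% of those that fell and 48.1% of those that rose. The length of the 3' UTR was not held: its median was 1784 bases in long genes that fell, 1922.5 in those that rose and 1291 in those not called. ATTTA, an AU-rich word that shares letters with the first where the 2 overlap, was present in 81.7% of long genes and 65.6% of shorter genes, but per kb of 3' UTR there were 1.78 matches in long genes and 1.82 in shorter genes. Within the long genes there were 1.92 per kb in those that fell, 1.37 in those that rose and 1.69 in those not called. In shorter genes there were 2.20 per kb in those that fell and 1.54 in those that rose. The median T content of the 3' UTR was 30.8% in long genes that fell, 28.3% in those that rose and 29.3% in those not called.

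Among the features set beside the difference (span, exon and intron measures, exon number, 3' UTR length and words, GC content and reads), GC content had the strongest rank relation to it. Split in 3 by the GC content of the principal transcript, 61 of 100 long genes of low GC content (37.4 to 46.7%) were lower and 1 was higher, with a median of -0.31. In the middle class 45 of 99 were lower and 8 higher (median -0.18), and in the class of high GC content (50.7 to 60.1%) 28 of 100 were lower and 11 higher (median -0.09). Spearman's rho between GC content and the log2 difference was 0.36 across the 299 long genes and 0.33 across 9389 shorter genes, so the relation was of like size in both. Set beside shorter genes of the same GC content, the long genes' median differed by -0.16 on the log2 scale, a comparison chosen after seeing the data. With the trend on GC content removed, 112 long genes were lower and 27 higher (37.5 and 9.03%, beside 20.3 and 24.5% of all tested genes).

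Faf1, FAS-associated factor 1, a ubiquitin-binding partner of the p97 segregase, fell most. The gene covers 287 kb of chromosome 4 on GRCm38 (109676588 to 109963960, plus strand). Its FPKM was 9.14, 8.46 and 9.78 in HuR libraries, against 27.2, 27.2 and 27.8 FPKM in beta-Gal libraries. The highest HuR library stayed far below the lowest beta-Gal library. The log2 difference was -1.49 (SE 0.06, limma adjusted p = 2.48e-05), a fall of 66.7% in mean FPKM.

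Gbe1, the glycogen branching enzyme, was the most abundant long gene and fell in all HuR libraries. It lies on chromosome 16 (70313949 to 70569716, plus strand). Its FPKM was 77.1, 74.9 and 77.2 in HuR libraries, against 141, 139 and 142 FPKM in beta-Gal libraries. Replicates of a group lay close together and the groups far apart. The log2 difference was -0.88 (SE 0.03, limma adjusted p = 2.25e-05).

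Gphn, gephyrin, a scaffold of inhibitory synapses that also makes the molybdenum cofactor in liver, had 6.89, 6.98 and 6.45 FPKM in HuR libraries, against 13.2, 13.8 and 13.4 FPKM in beta-Gal libraries. Its log2 difference was -0.90 (SE 0.05, limma adjusted p = 5.1e-05), and the groups did not overlap. Slc7a11, the cystine and glutamate exchanger that feeds glutathione synthesis, had 6.99, 7.04 and 6.63 FPKM in HuR libraries, against 13.6, 13.0 and 14.3 FPKM in beta-Gal libraries (log2 difference -0.89, SE 0.05). Both genes stood at about the same distance between the groups, with every HuR library below every beta-Gal library. Slc4a4, a sodium bicarbonate cotransporter, had 13.0, 11.7 and 11.2 FPKM in HuR libraries, against 21.4, 22.8 and 23.3 FPKM in beta-Gal libraries (log2 difference -0.86, SE 0.06). Rapgef4, the cAMP-activated Rap exchange factor known as Epac2, had 13.7, 14.4 and 14.5 FPKM in HuR libraries, against 24.1, 27.2 and 25.5 FPKM in beta-Gal libraries (log2 difference -0.80, SE 0.05). Neither gene had a HuR library near the beta-Gal range.

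Another 3 of the 10 largest falls were in genes of lower level. Sorbs2, an adaptor protein of actin fibres, had 4.24, 3.39 and 3.27 FPKM in HuR libraries, against 7.68, 7.65 and 7.52 FPKM in beta-Gal libraries. Psd3, an exchange factor for the small GTPase Arf6, had 3.27, 2.35 and 2.46 FPKM in HuR libraries, against 5.78, 5.83 and 5.95 FPKM in beta-Gal libraries. HuR replicate 1 was the highest of the HuR libraries in both genes and still below every beta-Gal library. Mpp7, a scaffold of cell polarity, had 1.47, 1.45 and 1.21 FPKM in HuR libraries, against 3.23, 3.07 and 3.63 FPKM in beta-Gal libraries. The log2 differences of these 3 genes were -0.90, -0.90 and -0.86, with limma adjusted p of at most 0.000638.

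**Figure D4:**
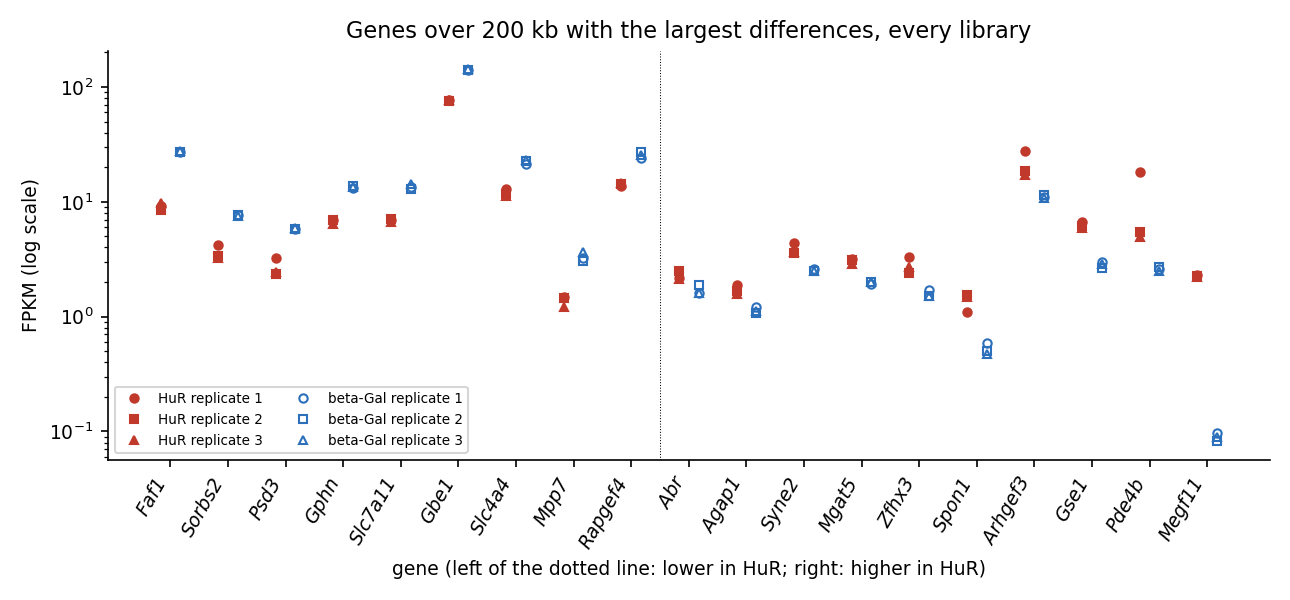
FPKM on a log axis in each library for 9 of the 10 largest falls (left of the dotted line) and the 10 largest rises (right) among called long genes without overlap between the groups, with HuR libraries as filled red and beta-Gal libraries as open blue markers and the marker shape giving the replicate. The groups stand apart for the 19 genes drawn, and HuR replicate 1 stands above the other 2 HuR libraries for Pde4b and Arhgef3.

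The rises included genes at a low level in beta-Gal libraries and genes with 1 high HuR library. Megf11, a membrane protein with EGF-like repeats known from the spacing of retinal neurons, was of the first kind. It had 2.29, 2.25 and 2.20 FPKM in HuR libraries, against 0.0964, 0.0821 and 0.0892 FPKM in beta-Gal libraries, or 386, 422 and 384 reads against 18, 16 and 17 reads. The HuR libraries differed from each other by less than 0.1 FPKM. The log2 difference was 1.58 (SE 0.08, limma adjusted p = 4.61e-05) on the log2(FPKM + 1) scale, which understates the change of low genes, and the ratio of mean FPKM was 25.2. Rab11a, an expressed gene on the other strand, lies 6094 bases from it. Spon1, a secreted matrix protein, had 1.09, 1.53 and 1.48 FPKM in HuR libraries, against 0.588, 0.503 and 0.469 FPKM in beta-Gal libraries (log2 difference 0.64, SE 0.11, limma adjusted p = 0.00358), and lies 3412 bases from Rras2 on the other strand. Both genes reached 1 FPKM in their HuR libraries alone. Without a statement on strand in the sources, reads of a gene and of a gene on the other strand cannot be told apart where they overlap. Neither model overlapped that of its neighbour. Mean FPKM in HuR and beta-Gal libraries was 23.7 and 28.0 for Rab11a, and 14.5 and 34.2 for Rras2. A part of neighbouring reads in these rises was not tested.

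Pde4b, a phosphodiesterase that breaks down cAMP, was of the second kind. It had 18.1, 5.45 and 4.94 FPKM in HuR libraries, against 2.57, 2.71 and 2.51 FPKM in beta-Gal libraries. HuR replicate 1 lay far above the other 2, which were themselves above all beta-Gal libraries. The log2 difference was 1.32 (SE 0.42, limma adjusted p = 0.0411). It was 0.78 without HuR replicate 1, with a limma adjusted p of 0.000451. The call was lost without beta-Gal replicate 1, 2 or 3 (limma adjusted p 0.0977, 0.0947 and 0.1). Arhgef3, an exchange factor for RhoA, had 27.9, 18.5 and 17.2 FPKM in HuR libraries, against 11.1, 11.5 and 10.7 FPKM in beta-Gal libraries (log2 difference 0.85, SE 0.17, or 0.64 without HuR replicate 1). Both were among 6 long genes in which HuR replicate 1 was at least 1.5 times each of the other HuR libraries, with Nedd4l, Akap13, Dlc1 and Sgms1, none of which was called. Across the 299 genes HuR replicate 1 was the highest HuR library in 147, replicate 2 in 71 and replicate 3 in 81. This order was not counted over all tested genes, so it cannot be read as particular to long genes.

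The remaining rises were steadier between replicates. Gse1, a coiled-coil protein found in co-repressor complexes, had 6.64, 6.12 and 5.89 FPKM in HuR libraries, against 3.01, 2.65 and 2.90 FPKM in beta-Gal libraries (log2 difference 0.90, SE 0.07, limma adjusted p = 0.000143). Zfhx3, a large zinc finger and homeobox transcription factor, had 3.29, 2.39 and 2.69 FPKM in HuR libraries, against 1.70, 1.51 and 1.52 FPKM in beta-Gal libraries (log2 difference 0.55, SE 0.10). Mgat5, which adds branches to N-glycans, had 3.20, 3.14 and 2.90 FPKM in HuR libraries, against 1.91, 2.01 and 2.01 FPKM in beta-Gal libraries (log2 difference 0.45, SE 0.06). In all 3 the lowest HuR library was above the highest beta-Gal library. Syne2, nesprin-2 of the nuclear envelope, rose by 0.45, the Arf regulator Agap1 by 0.34 and the GTPase regulator Abr by 0.27 on the log2 scale. The call of Agap1 was lost without beta-Gal replicate 2 or 3 (limma adjusted p 0.0537 and 0.0502), and Abr was at 0.102, 0.104 and 0.0941 with beta-Gal replicate 1, beta-Gal replicate 3 and HuR replicate 2 left out in turn.

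The 5 genes of greatest span did not move alike. Ptprd, a receptor tyrosine phosphatase with a model of 2271 kb on chromosome 4 (75941238 to 78211961, minus strand), had 2.95, 2.81 and 2.91 FPKM in HuR libraries, against 4.35, 4.25 and 4.12 FPKM in beta-Gal libraries (log2 difference -0.43, SE 0.05, limma adjusted p = 0.00112). Dmd, dystrophin, with 2257 kb on the X chromosome (82948870 to 85206141, plus strand), had 0.692, 0.708 and 0.749 FPKM in HuR libraries, against 1.31, 1.41 and 1.37 FPKM in beta-Gal libraries (log2 difference -0.46, SE 0.08, limma adjusted p = 0.0038). Both fell, and Dmd, like Pde4d below, reached 1 FPKM in its beta-Gal libraries alone. Pde4d, another cAMP phosphodiesterase, with 1504 kb, had 0.697, 0.600 and 0.582 FPKM in HuR libraries, against 1.13, 1.14 and 1.07 FPKM in beta-Gal libraries (log2 difference -0.38, SE 0.09, limma adjusted p = 0.0114). Chd1, a chromatin remodeller with a model of 1690 kb but a principal transcript of 67.6 kb, had 17.7, 14.0 and 13.3 FPKM in HuR libraries, against 12.8, 12.9 and 12.8 FPKM in beta-Gal libraries, and did not pass (limma adjusted p = 0.147). Every HuR library of Chd1 was nevertheless above every beta-Gal library. Zfhx3, with 1019 kb, was the only one of the 5 that was called higher.

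Of the 5 most abundant long genes, 4 fell. Fam107b, the fifth by mean FPKM, had 30.9, 32.005 and 31.2 FPKM in HuR libraries, against 52.2, 49.4 and 51.1 FPKM in beta-Gal libraries (log2 difference -0.68, SE 0.04, limma adjusted p = 5.26e-05). Acaca, acetyl-CoA carboxylase 1, which makes the malonyl-CoA for fatty acid synthesis, had 37.5, 42.2 and 42.5 FPKM in HuR libraries, against 54.1, 53.9 and 51.9 FPKM in beta-Gal libraries (log2 difference -0.38, SE 0.06). The groups did not overlap in either. Iqgap2, a scaffold protein of the cytoskeleton with high levels in liver, had 48.7, 48.1 and 44.1 FPKM in HuR libraries, against 55.3, 53.4 and 51.9 FPKM in beta-Gal libraries (log2 difference -0.18, SE 0.05, limma adjusted p = 0.0224). Its limma adjusted p was 0.0782, 0.0656 and 0.0509 with beta-Gal replicate 1, beta-Gal replicate 2 and HuR replicate 3 left out in turn, and 0.125 and 0.224 with the trends on exon length and GC content removed. Atp5o, a subunit of the mitochondrial ATP synthase, had 50.4, 46.7 and 50.5 FPKM in HuR libraries, against 47.5, 48.1 and 48.7 FPKM in beta-Gal libraries, and the groups overlapped.

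Role lists held 157 of the 299 genes, and falls outnumbered rises in each of the 7 lists. The lists are parts of the long genes, of which 44.8% were lower and 6.69% higher, so this excess is no separate result. The share of falls was below 44.8% in the lists for metabolism, cytoskeleton and RNA-binding proteins, and above it in the others. No list was tested against the other long genes. Among all tested genes, 24.8% were lower and 20.7% higher. Of 29 genes for vesicle traffic, ubiquitin and autophagy, 18 were lower and none higher, with a median of -0.28. Gphn, listed here although its known roles lie at synapses and in cofactor synthesis, fell most, and Exoc6b, a subunit of the exocyst that tethers secretory vesicles, had 0.935, 0.826 and 0.953 FPKM in HuR libraries, against 2.05, 2.05 and 2.03 FPKM in beta-Gal libraries (log2 difference -0.68, SE 0.07). Sbf2, an inactive myotubularin that activates a Rab GTPase, had 1.81, 1.58 and 1.56 FPKM in HuR libraries, against 3.28, 3.01 and 3.15 FPKM in beta-Gal libraries (log2 difference -0.65, SE 0.07). Neither of them had overlapping groups, and Exoc6b reached 1 FPKM in its beta-Gal libraries alone. Exoc4, a second exocyst subunit with a span of 725 kb, was not called, with 2.93, 3.08 and 2.93 FPKM in HuR libraries, against 2.73, 3.27 and 2.98 FPKM in beta-Gal libraries, and was named after its values were seen.

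**Figure D5:**
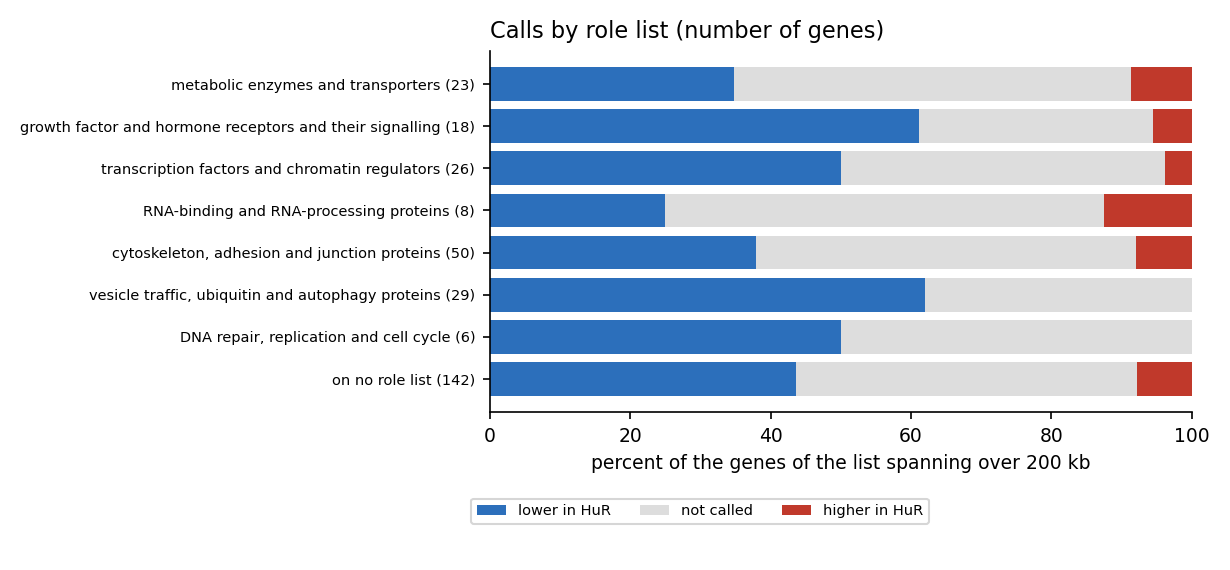
Percent of the long genes of each role list that were lower in HuR libraries (blue), not called (grey) or higher in HuR libraries (red) at a limma adjusted p under 0.05, with the number of genes in brackets. The vesicle traffic list had 18 lower and no higher genes of 29, and the list of RNA-binding proteins had 2 lower and 1 higher of 8.

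Of 18 genes for growth factor and hormone receptors and their signalling, 11 were lower and 1 higher, with a median of -0.32. Ghr, the growth hormone receptor, through which the liver makes IGF1, had 11.8, 12.0 and 12.3 FPKM in HuR libraries, against 18.2, 18.8 and 17.9 FPKM in beta-Gal libraries (log2 difference -0.56, SE 0.04, limma adjusted p = 0.000134). The single rise was that of Itpr2, an inositol trisphosphate receptor that releases calcium, with 4.22, 4.29 and 3.99 FPKM in HuR libraries, against 3.73, 3.50 and 3.55 FPKM in beta-Gal libraries (log2 difference 0.17, SE 0.06, limma adjusted p = 0.0453). Its paralog Itpr1 had 7.78, 7.77 and 7.60 FPKM in HuR libraries, against 10.6, 9.50 and 9.98 FPKM in beta-Gal libraries (log2 difference -0.34, SE 0.05, limma adjusted p = 0.00242). The ratio of Itpr2 to Itpr1 was 0.542, 0.551 and 0.526 in HuR libraries, against 0.352, 0.369 and 0.355 in beta-Gal libraries, and that of Pde4b to Pde4d was 25.9, 9.09 and 8.48 in HuR libraries, against 2.28, 2.37 and 2.35 in beta-Gal libraries. Of 4 pairs of paralogs computed, the groups overlapped in the other 2. The ratio of Ncoa1 to Ncoa2 was 1.13, 1.10 and 1.38 in HuR libraries, against 1.38, 1.18 and 1.29 in beta-Gal libraries, and that of Nfia to Nfib was 0.399, 0.396 and 0.433 in HuR libraries, against 0.424, 0.437 and 0.402 in beta-Gal libraries. The pairs were picked after their values were seen.

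Of 26 transcription factors and chromatin regulators, 13 were lower and 1, Zfhx3, higher, with a median of -0.23. Chd9, a chromatin remodeller, had 2.59, 2.37 and 2.48 FPKM in HuR libraries, against 4.02, 3.74 and 4.08 FPKM in beta-Gal libraries (log2 difference -0.51, SE 0.06). Ncoa1, a co-activator of nuclear receptors, had 3.93, 3.87 and 4.31 FPKM in HuR libraries, against 6.51, 5.66 and 6.07 FPKM in beta-Gal libraries (log2 difference -0.49, SE 0.07). Zbtb20, a zinc finger repressor known in liver for silencing alpha-fetoprotein after birth, had 6.83, 6.16 and 5.79 FPKM in HuR libraries, against 9.61, 8.82 and 8.72 FPKM in beta-Gal libraries (log2 difference -0.47, SE 0.07). The groups did not overlap in these 3 genes. The list also held Rora, a clock-related nuclear receptor, and Arid1b, a subunit of the SWI/SNF remodeller, which were not called and were named after their values were seen. Their log2 differences were 0.07 and 0.05.

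Of 23 genes for metabolic enzymes and transporters, 8 were lower and 2 higher, with a median of -0.14. Gbe1 and Slc7a11, described above, were on no role list and are not in these counts, with log2 differences of -0.88 and -0.89. Falls on the list included Slc4a4, Ghr, Acaca, Pde4d and Tmem135, a membrane protein linked to peroxisomes, and the rises were Mgat5 and Pde4b. Tmem135 had 6.44, 5.70 and 5.30 FPKM in HuR libraries, against 10.04, 10.7 and 9.51 FPKM in beta-Gal libraries (log2 difference -0.71, SE 0.08). Dpyd, which breaks down pyrimidines and spans 871 kb, was not called, with 14.3, 13.1 and 12.2 FPKM in HuR libraries, against 12.2, 12.8 and 13.3 FPKM in beta-Gal libraries, and was named after its values were seen. Its groups overlapped, and its level was above the median of the long genes, 3.42 FPKM.

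The 50 genes for cytoskeleton, adhesion and junctions had 19 lower and 4 higher, with a median of -0.12. Tjp1, the tight junction scaffold ZO-1, had 9.67, 9.86 and 9.10 FPKM in HuR libraries, against 17.3, 16.6 and 15.9 FPKM in beta-Gal libraries (log2 difference -0.74, SE 0.05, limma adjusted p = 0.000119). It joined Sorbs2, Mpp7 and Dmd among the falls, while Megf11, Spon1, Arhgef3 and Nav2 were the 4 rises. Of 8 RNA-binding proteins 2 were lower and 1 higher, with a median of -0.09. Rbms1, which binds AU-rich RNA, fell by 0.34 and Smg6, the endonuclease of nonsense-mediated decay, by 0.33 on the log2 scale, while the splicing regulator Rbfox2 rose by 0.25. Rbfox2 did not pass under TPM scaling (limma adjusted p = 0.0687).

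Of 6 genes for DNA repair, replication and cell cycle, 3 were lower and none higher, with a median of -0.29. Stag1, a cohesin subunit, had 2.25, 2.26 and 2.35 FPKM in HuR libraries, against 4.16, 4.31 and 4.32 FPKM in beta-Gal libraries (log2 difference -0.68, SE 0.06). Mcph1, microcephalin, fell by 0.34 on the log2 scale. The third fall, not reported here, was in a gene that reached 1 FPKM in its beta-Gal libraries alone. Outside the lists, 62 of 142 genes were lower and 11 higher (median -0.20), close to the 299 as a whole.

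Factors that act on transcription were themselves in part among the genes that changed. A list of 37 tested genes held elongation factors, topoisomerases and U1 snRNP proteins. It also held termination and export factors such as Pcf11, Xrn2, Thoc1 and Thoc2. Of the 37, 16 were lower (43.2%) and 4 higher (10.8%), with a median of -0.18, beside 24.8% lower and 20.7% higher among all tested genes. The median exon model of the list was 5.93 kb. Of protein-coding genes spanning up to 200 kb with exon models of 5899 to 7213 bases, 34.6% were lower and 15.4% higher. The 17 not called included Supt5, Supt6, Cdk9, Paf1, Polr2b, Snrpa and Snrpc. Top2b, a topoisomerase that relieves strain in DNA ahead of polymerase and is known for its role at long neuronal genes, had 2.95, 2.95 and 2.74 FPKM in HuR libraries, against 5.90, 6.22 and 6.14 FPKM in beta-Gal libraries (log2 difference -0.87, SE 0.05, limma adjusted p = 7.93e-05). Tcea1, the elongation factor TFIIS, had 13.9, 14.1 and 13.3 FPKM in HuR libraries, against 21.2, 21.04 and 22.8 FPKM in beta-Gal libraries (log2 difference -0.61, SE 0.05). Iws1, a partner of the elongation factor Spt6, had 2.13, 2.70 and 2.44 FPKM in HuR libraries, against 4.93, 5.28 and 5.43 FPKM in beta-Gal libraries (log2 difference -0.86, SE 0.08). Top2b, Tcea1 and Iws1 are given because they had the smallest adjusted p of the list. The 4 that were higher were Ell, Leo1, Pcf11 and Setd2. These genes span at most 163 kb, and their part in the levels of the long genes was not tested.

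Long genes with and without an expressed gene beside them had similar shares of falls. An expressed neighbour, with a mean of at least 5 FPKM, overlapped or lay within 10 kb of 57 of them, of which 24 were lower and 4 higher (median -0.16). Of the 242 without such a neighbour, 110 were lower and 16 higher (median -0.19). Over the chromosomes, the median was below 0 on each of the 20 that held long genes, between -0.46 on the X chromosome, where 6 of 7 long genes were lower, and -0.03 on chromosome 9.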

How the data were processed

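Total RNA of 6 hepatocyte samples was sequenced, and groups and replicate numbers come from the sample titles. The deposited table gives FPKM, made by the authors, for 54118 gene models with coordinates, biotype and exon model length, which is another deposited value in bases. Per the submitters' processing notes, the tools included DESeq2 1.16.1, featureCounts 1.5.0-p3 and HISAT2 2.0.5, and the build was GRCm38.p6. How each was used, and the strand setting of counting, are not given in the sources used here. FPKM times exon length was a whole multiple of 1 step for 100% of values (tolerance 0.001), so whole reads could be recovered, and 1 read on a 1 kb model was worth 0.0573 to 0.0664 FPKM. Values were tested as log2(FPKM + 1), that is with a pseudocount of 1, by limma 3.58.1 (R 4.3.3, mean-variance trend). The 11281 tested genes reached 1 FPKM in 3 or more of the 6 libraries, and p-values were two-sided and adjusted over all of them by Benjamini-Hochberg, with a threshold of 0.05. Group was the only term. The step was also run on simulated reads with far fewer changed genes than were called here, and no result here rests on that run.

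The long genes, the 7 role lists and the list of elongation and related factors were chosen with earlier results of these data known, so no p-value is given for a list. Transcripts, GC content and 3' UTRs come from GENCODE M21, in which all 299 long genes were found, 275 with the same coordinates. Its principal transcript served for these features. The text names Elavl1, the 10 long genes with the greatest rise and the 10 with the greatest fall that were called without overlap, the 5 of greatest span, the 5 of highest mean FPKM, the 3 of each role list with the smallest adjusted p, and those nearest the thresholds. Some genes of these kinds are not reported here. Alternatives covered the pseudocount, the filter, the scaling (TPM, median centring, quantiles), limma without trend or with voom, a replicate block, adjustment over protein-coding genes, the span threshold, removal of trends on exon length and GC content, and leaving out genes with neighbours or single libraries. Columns of other samples numbered 0. Python 3.11.15, numpy 2.4.6, pandas 2.3.3 and matplotlib 3.10.9 were used.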

Additional observations from a re-analysis of the deposited data

How the results depend on the processing

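No alternative turned the direction of the median or of a called gene of the naming rule. Atp5o, not called, differed by 0.03, and by -0.08 under TPM scaling, -0.03 with quantile normalization and -0.0021 with the GC trend removed. The 299 genes had 20 rises, 134 falls, a median of -0.18 and a median of -0.10 against shorter genes of the same exon length. The count of rises was 12 with no filter, 8 of 102 genes with FPKM of at least 5, 10 under TPM scaling, 40 with the exon length trend removed, 102 of 1026 genes over 100 kb and 11 of 123 over 300 kb. The count of falls was 54 with FPKM of at least 5, 88 with the exon length trend removed, 465 over 100 kb and 55 over 300 kb. With 1 library left out, rises numbered 11 to 19, falls 106 to 138, the median was -0.21 to -0.17 and the median against shorter genes -0.10 to -0.09. The median was -0.26 and -0.22 with pseudocounts of 0.1 and 0.5, -0.23 with FPKM of at least 5, -0.32 under TPM scaling (all tested genes -0.11), -0.14 with median centring, -0.27 with limma voom on recovered reads, -0.11 with the exon length trend removed, -0.13 with the GC trend removed, -0.17 over 100 kb, -0.22 over 300 kb and -0.16 with FPKM of at least 1 in all 6 libraries. Against shorter genes of the same exon length it was -0.14 and -0.12 with pseudocounts of 0.1 and 0.5, -0.18 with no filter, -0.16 with FPKM of at least 5, -0.12 under TPM scaling, -0.15 with voom, -0.11 with the GC trend removed and -0.075 with FPKM of at least 1 in all 6 libraries, and -0.17 and -0.16 at the same reads or GC content in place of exon length. These settings of 6 libraries, reads and GC content, and that of the principal transcript, were chosen after seeing the data. Rises made up 13.0% of the calls of long genes, and 31.3% with the exon length trend removed, so the split of calls rests in part on whether exon length is corrected. No pairing by replicate number was visible: correlations of deviations in same-numbered pairs were -0.029, 0.00067 and -0.014. With 3 libraries per group these values cannot show whether samples were prepared in pairs. With the replicate block 16 genes were higher and 117 lower. Of single genes, Chd1 passed with the exon length or GC trend removed, while Dmd, Pde4d and Iqgap2 no longer passed with the exon length trend removed (limma adjusted p 0.0588, 0.0803 and 0.125), nor Dmd, Iqgap2 and Abr with the GC trend removed (0.055, 0.224 and 0.0562), Abr and Rbfox2 under TPM scaling (0.116 and 0.0687), Abr and Pde4b with no filter (0.0935 and 0.102) and Pde4b without a mean-variance trend (0.0508). The long genes had a median of 514 reads per library, and 179 where beta-Gal libraries alone reached 1 FPKM. A floor set at 3 reads was worth 0.172 to 0.199 FPKM on a 1 kb model. It was not used as a filter, and no detection limit was estimated from the data. The cause of these changes was not tested.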
